A study of Mus musculus with 7 samples.

Results

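Siglecs and paired immunoglobulin-like receptors are cell surface proteins carried mainly by myeloid cells. Siglecs bind sialic acid on glycans, and the paired receptors come as inhibitory and activating relatives with similar outer domains. The inhibitory members recruit the phosphatase SHP-1 through tyrosine motifs in their tails, and the activating members signal through the adaptors Tyrobp (DAP12) or Fcer1g. The receptors described here were chosen by name, with the difference between mutant and wildtype libraries already known. Of the 10 names, 9 matched a row of the deposited table, which held 26558 named genes in all. Pirb, the remaining name, is another symbol of the gene listed as Lilrb3. The 9 genes are Siglece, Siglech, Siglec1, Lilra5, Lilrb3, Lilrb4, Pilra, Sirpa and Cd300a, and all 9 reached the mean FPKM of 1 that was required for the fit over all genes.

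RNA was sequenced from endothelial isolates of the kidneys of male C57BL/6 mice, 3 months old. The 4 mutant libraries (Hoxb7-Cre-GFP with Vhlh flanked by loxP sites on both alleles, VhlhloxP/loxP) came from mice that lose Vhlh, the gene of the von Hippel-Lindau protein, in tubule cells. The 3 wildtype libraries carried the Hoxb7-Cre-GFP transgene alone, so Cre and GFP were present in both groups. The Hoxb7 promoter is active in the ureteric bud and the collecting duct derived from it, so the deletion is directed at epithelium and not at the isolated cells. Cells were captured without culture on magnetic beads carrying an antibody against Cd31, which some leukocytes also carry. Whether a library stands for its own animal is not stated in the labels, so errors and tests measure the spread between these libraries, which may be technical.

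Levels are given as FPKM, a read abundance corrected for transcript length and library size, so that genes can be set side by side. Absolute depth is unknown, and relative depth, read from steps among low values, ran from 0.801 to 0.895 in mutant libraries and from 0.710 to 1 in wildtype libraries. Vhl was at an FPKM of 5.57 to 6.41 in mutant libraries and of 6.71 to 8.24 in wildtype libraries, and was not called (log2 fold change -0.23, limma adjusted p = 0.123), which is no check of a deletion made in other cells. The endothelial markers were present in every library, with the 8 markers summing to 1892 to 2328 FPKM in mutant libraries and 1312 to 1898 FPKM in wildtype libraries. These markers went the other way from most of the receptors, with 4 of 8 called higher, 0 lower and a median log2 fold change of 0.42. Over all genes tested, 8.76% were called higher and 7.34% lower. All 4 marker calls, those of Pecam1, Cdh5, Tie1 and Erg, were lost after scaling every library to 1 total. Pecam1, the gene of the captured Cd31, rose to 354 ± 33.6 in mutant libraries (SD, n = 4), against 247 ± 41.8 in wildtype libraries (SD, n = 3; limma adjusted p = 0.0379). That call was lost without mutant 1, 2 or 4 or wildtype 2 or 3, and the part of these markers in the receptor levels was not tested. The 10 macrophage markers summed to 389 to 853 FPKM in mutant libraries and 1710 to 2905 FPKM in wildtype libraries, and none of the 10 was at 0 in any library. Mutant 2 held the highest macrophage sum of its group, at 853 FPKM, against 389 to 450 FPKM in the other mutants. The 6 monocyte markers summed to 215 to 289 FPKM in mutant libraries and 148 to 162 FPKM in wildtype libraries. Plac8 made up the largest part of these sums, at 163 to 179 FPKM in mutant and 84.1 to 93.6 FPKM in wildtype libraries. Of the 5 monocyte markers tested, Plac8 was called higher, Ccr2 was called lower and 3 were not called. The 8 neutrophil markers summed to 19.8 to 131 FPKM in mutant and 41.2 to 103 FPKM in wildtype libraries, which overlapped.

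Of the 9 receptors, 7 had all mutant libraries below all wildtype libraries, 1 (Siglech) had all mutant libraries above, and 1 (Pilra) overlapped. Over the 13420 genes tested, 12.5% had the mutant libraries below without overlap and 18.9% above, 31.4% together. The 9 receptors summed to 84.4 to 171 FPKM in mutant libraries and 263 to 381 FPKM in wildtype libraries. In the fit over all genes (limma, Benjamini-Hochberg adjusted p under 0.05) 7 of the 9 were past the threshold in the lower direction and 1 in the higher, where 7.34% of all genes were called lower and 8.76% higher, 16.1% together. Because the genes were picked with this contrast in view, these counts describe the group and nothing is read from them. The median log2 fold change of the 9 was -1.47, beside 0.04 over all genes tested. Without mutant 2 the lower count was 8, with Pilra added, and without wildtype 2 or wildtype 3 it was 5, with Siglec1 and Lilrb4 lost. Lilrb4 also lost its place past the threshold without wildtype 1, mutant 1, mutant 3 or mutant 4. In an isolate of mixed cells, fewer cells of a type and less RNA per cell cannot be told apart. Macrophage markers moved with the receptors, 9 of 10 being called lower with a median of -2.07, and their part in the result was not tested.

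**Figure D1:**
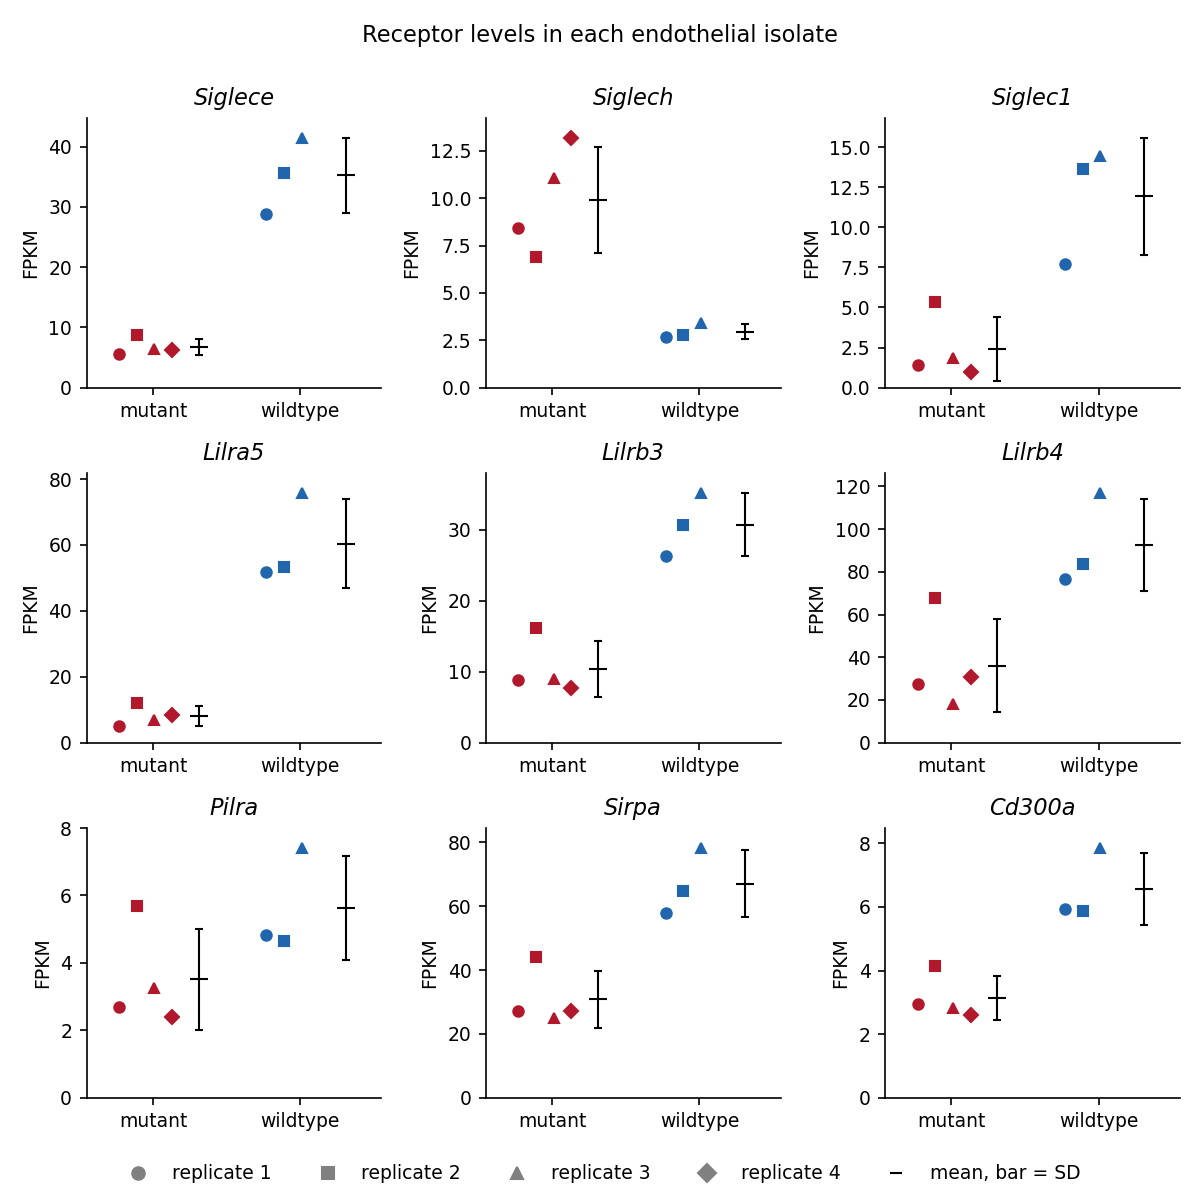
Each panel plots the FPKM of 1 receptor gene (vertical axis, from 0) in the 4 mutant libraries (red) and the 3 wildtype libraries (blue), with the group mean and SD in black. Siglech lies higher in all 4 mutant libraries, Pilra overlaps through mutant 2, and the other 7 genes lie lower in all 4 mutant libraries.

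The stretches of genome just before the start of these genes are shown because most of the genes lay on the same side and Siglech on the other. RefSeq promoter sequences (build GRCm38.p6) were found for 6 of the 9 genes. The search was for GAGGAA, the core recognised by the myeloid factor PU.1 (Spi1) and its ETS relatives, and for ACGTG, a form of the core of the hypoxia response element, on both strands of the 250 bases before the start. GAGGAA or its complement TTCCTC was found for 5 of the 6 genes, Siglece, Lilra5, Lilrb3, Pilra and Cd300a, and in 23.3% of all 32851 promoters of this length. ACGTG or its complement CACGT was found for 1 of the 6 genes, Siglech, and in 16.6% of all promoters. That count is near the share over all promoters, so nothing is read from it. GCGTG, the other form of that core, was in 0 of the 6 and in 28.2% of all promoters. The matches are letters in these windows and show no binding. Pilra, among the 5 genes with GAGGAA, overlapped between the groups. Whether a match bears on the direction of a gene was not tested. Below, capitals mark GAGGAA or TTCCTC in Siglece (chr7:43660162-43660411, minus strand), Lilra5 (chr7:4237504-4237753, plus strand) and Lilrb3 (chr7:3720383-3720632, minus strand), and ACGTG or CACGT in Siglech (chr7:55767934-55768183, plus strand). The last base of each line is the base before the gene's start in RefSeq, which can differ by a few bases from the GENCODE M21 positions given with each gene.
Siglece: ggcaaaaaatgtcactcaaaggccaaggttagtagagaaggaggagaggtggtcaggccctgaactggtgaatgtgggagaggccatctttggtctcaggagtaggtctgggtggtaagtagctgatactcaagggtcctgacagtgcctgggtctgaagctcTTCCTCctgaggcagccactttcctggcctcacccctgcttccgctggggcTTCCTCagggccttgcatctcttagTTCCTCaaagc
Lilra5: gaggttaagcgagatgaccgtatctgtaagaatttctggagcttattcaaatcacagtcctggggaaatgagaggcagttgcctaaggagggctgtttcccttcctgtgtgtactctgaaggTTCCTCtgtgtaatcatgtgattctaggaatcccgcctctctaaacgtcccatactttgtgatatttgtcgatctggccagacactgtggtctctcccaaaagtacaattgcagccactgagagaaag
Lilrb3: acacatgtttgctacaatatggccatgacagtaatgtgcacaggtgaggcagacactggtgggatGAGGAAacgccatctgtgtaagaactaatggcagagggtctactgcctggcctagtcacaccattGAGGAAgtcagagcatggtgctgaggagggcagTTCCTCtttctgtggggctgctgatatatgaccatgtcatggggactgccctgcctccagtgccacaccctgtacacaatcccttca
Siglech: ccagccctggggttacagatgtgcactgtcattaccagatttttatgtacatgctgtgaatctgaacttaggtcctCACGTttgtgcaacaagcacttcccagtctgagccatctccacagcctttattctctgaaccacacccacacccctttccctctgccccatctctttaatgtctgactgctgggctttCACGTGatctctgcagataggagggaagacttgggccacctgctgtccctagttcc
Siglece holds 3 matches in this window, the nearest starting 11 bases before the gene, and Lilrb3 also holds 3, while Lilra5 holds 1, starting 128 bases before the gene. In Siglech 2 of the 3 matches overlap, since the 6 letters CACGTG read the same on both strands.

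Siglece and Siglec1 were lower, and Siglech higher, in all 4 mutant libraries than in any of the 3 wildtype libraries. Siglece, an inhibitory siglec of mouse neutrophils and macrophages, lies on chromosome 7 at 43651070 to 43660161 (mm10). It was at an FPKM of 5.52, 8.68, 6.43 and 6.24 in mutant 1 to 4, against 28.9, 35.6 and 41.3 in wildtype 1 to 3. The mutant mean was 6.72 ± 1.37 (SD, n = 4) and the wildtype mean 35.2 ± 6.25 (SD, n = 3). The groups were far apart, with the highest mutant library at 8.68 and the lowest wildtype library at 28.9, and the fitted log2 fold change was -2.23 (standard error 0.16). Without mutant 2 the mutant mean was 6.06.

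Siglec1, sialoadhesin, is a long adhesion receptor of tissue macrophages that has no inhibitory motif (chromosome 2, 131069220 to 131086765). Its FPKM was 1.43, 5.33, 1.83 and 0.954 in mutant 1 to 4, against 7.72, 13.6 and 14.4 in wildtype 1 to 3. Mutant 2 was 3.80 times the mean of the other mutants, the widest gap among the 9 genes, and still below the lowest wildtype library. The fitted log2 fold change was -2.05 (standard error 0.40), and the mutant mean of 2.39 became 1.40 without mutant 2.

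Siglech is a Tyrobp-coupled siglec best known as a marker of mouse plasmacytoid dendritic cells (chromosome 7, 55768178 to 55778925). Its level was an FPKM of 8.44, 6.91, 11.1 and 13.2 in mutant 1 to 4, against 2.69, 2.78 and 3.41 in wildtype 1 to 3. Every mutant library was above every wildtype library, the mutant mean was 3.35 times the wildtype mean, and the fitted log2 fold change was 1.43 (standard error 0.20). Mutant 2 was the lowest mutant library for Siglech and the highest for the other 8 receptors, and without it the Siglech mean of 9.90 became 10.9. Siglech was the fourth in order of mean FPKM in mutant libraries, at 9.90, and the lowest of the 9 in wildtype libraries, at 2.96. Of 7 plasmacytoid dendritic cell markers, 5 reached the filter, of which 1 was called higher and 4 were not called. The gene called is Ccr9, a homing receptor of these cells, which was at an FPKM of 1.33 to 2.62 in mutant libraries and 0.624 to 0.695 in wildtype libraries. Ccr9 reached the filter through the mutant libraries alone, and its call was lost without any 1 of the wildtype libraries, so nothing is read from it. Both markers under the filter went opposite ways, Pacsin1 at a mean FPKM of 1.11 in mutant and 0.434 in wildtype libraries, and Rpgrip1 at 0.220 in mutant and 0.546 in wildtype libraries. Ly6d averaged 13.03 in mutant and 13.04 in wildtype libraries and was not called (limma adjusted p = 0.920), nor were Cox6a2 (log2 fold change 0.71) and 2210020M01Rik (log2 fold change 0.18). Spib, a transcription factor of B and plasmacytoid cells, was at 3.70 to 6.15 in mutant and 3.56 to 4.82 in wildtype libraries and was not called (limma adjusted p = 0.413). The 7 markers summed to 21.8 to 42.1 FPKM in mutant libraries and 25.7 to 31.7 FPKM in wildtype libraries, none was at 0, and their part in the Siglech level was not tested.

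The leukocyte immunoglobulin-like receptors Lilra5, Lilrb3 and Lilrb4 were each lower in all 4 mutant libraries than in any of the 3 wildtype libraries. Lilra5 is an activating receptor whose human counterpart couples to the Fc receptor gamma chain (chromosome 7, 4237754 to 4243463). The mutant libraries 1 to 4 had an FPKM of 5.13, 11.95, 6.88 and 8.39, against 51.9, 53.4 and 75.9 in wildtype 1 to 3. Its mutant mean was 13.4% of the wildtype mean, the lowest share of the 9, with a fitted log2 fold change of -2.79 (standard error 0.25). Lilra5 was the fifth in order in mutant libraries, at a mean FPKM of 8.09 (6.80 without mutant 2), and the third in wildtype libraries, at 60.4.

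Lilrb3 (Pirb, the paired immunoglobulin-like receptor B) is an inhibitory receptor for MHC class I molecules (chromosome 7, 3711409 to 3720391). Its FPKM was 8.78, 16.2, 8.97 and 7.63 in mutant 1 to 4, against 26.3, 30.6 and 35.2 in wildtype 1 to 3. Mutant 2 stood apart from the other mutants but stayed below wildtype 1, and the fitted log2 fold change was -1.52 (standard error 0.23). Its mutant mean of 10.4 became 8.46 without mutant 2, against 30.7 in wildtype libraries. The gene is a close copy of the activating Pira genes, so reads can be shared among them and each value is uncertain.

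Lilrb4 (gp49B, Lilrb4a in the GENCODE M21 annotation) is an inhibitory receptor of mast cells and myeloid cells. It lies on chromosome 10 at 51490956 to 51496611, where 2 other gene models overlap it, and it shares near-identical sequence with Gp49a. Levels were an FPKM of 27.6, 67.9, 18.1 and 31.0 in mutant 1 to 4, against 76.7, 83.7 and 117 in wildtype 1 to 3. Mutant 2 came close to wildtype 1, so the groups were separate by a narrow gap, and the fitted log2 fold change was -1.47 (standard error 0.39). Without mutant 2 the mutant mean of 36.1 became 25.6, against 92.5 ± 21.6 (SD, n = 3) in wildtype libraries. Lilrb4 had the highest mean of the 9 in both groups.

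Sirpa, Cd300a and Pilra, the remaining inhibitory receptors, had the smallest fitted changes of the 9. Sirpa binds Cd47 on other cells, the signal that restrains phagocytosis (chromosome 2, 129592835 to 129632228). Its FPKM was 27.2, 44.0, 25.1 and 27.0 in mutant 1 to 4, against 57.8, 64.8 and 78.4 in wildtype 1 to 3. The mutants other than mutant 2 lay between 25.1 and 27.2, and every mutant library was below wildtype 1. The fitted log2 fold change was -1.12 (standard error 0.20), and the mutant mean of 30.8 became 26.4 without mutant 2.

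Cd300a is an inhibitory receptor for the phospholipids exposed on dying cells (chromosome 11, 114890041 to 114904654). Its FPKM was 2.95, 4.13, 2.82 and 2.59 in mutant 1 to 4, against 5.94, 5.89 and 7.87 in wildtype 1 to 3. All mutant libraries were below all wildtype libraries, with a fitted log2 fold change of -0.88 (standard error 0.15), and the mutant mean of 3.12 became 2.79 without mutant 2.

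Pilra, the inhibitory partner of the paired type 2 immunoglobulin-like receptors, lies on chromosome 5 at 137821952 to 137836281, overlapping Zcwpw1 on the opposite strand. It was at an FPKM of 2.69, 5.69, 3.25 and 2.41 in mutant 1 to 4, against 4.83, 4.66 and 7.42 in wildtype 1 to 3. Mutant 2 was above wildtype 1 and wildtype 2, so the groups overlapped, and the fitted log2 fold change was -0.59 (standard error 0.25). Pilra was past the threshold in the lower direction in the fit without mutant 2, in which the mutant mean of 3.51 became 2.78.

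The order of the receptors within a library set differed between the groups. In mutant libraries Lilrb4 and Sirpa led, with ranges that overlapped each other and lay above those of the other 7, whose neighbours in the order all overlapped. In wildtype libraries the order by mean FPKM was Lilrb4, Sirpa, Lilra5, Siglece, Lilrb3, Siglec1, Cd300a, Pilra and Siglech. Ranges did not overlap between Lilra5 and Siglece, between Lilrb3 and Siglec1, or between Pilra and Siglech, and the other neighbours overlapped. Wildtype 3 had the highest wildtype value for all 9 genes, and for 9 of the 10 macrophage markers. Mutant 2 had the highest mutant value for 8 of the 9 genes and for 10 of the 10 macrophage markers. Its ratio to the mean of the other mutants had a median of 1.76 over the 9 receptors and of 2.004 over the macrophage markers.

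Set against the macrophage markers of the same library, the receptors fell on both sides of the markers. The measure is the log2(FPKM + 1) of a receptor minus the mean of the 10 markers, and it is a description without a test. Lilra5 was at -2.05 to -1.54 in mutant libraries and -1.04 to -0.78 in wildtype libraries, a difference of -0.93, so it lay further below the markers in every mutant library. Siglece was also lower relative to the markers, by -0.38, without overlap, and Siglec1 differed by -0.19 with overlapping groups. Among the 10 markers Mertk was not called, at a mean FPKM of 18.1 in mutant and 18.6 in wildtype libraries, while the other 9 were called lower. Differences as small as those of Siglece and Siglec1 can depend on this marker, and the measure was not recomputed without it. Lilrb3 and Sirpa were higher relative to the markers in every mutant library, by 0.33 and 0.73, and Lilrb4 by 0.38 with overlap. Cd300a and Pilra differed by 0.98 and 1.27, although the added 1 FPKM compresses the change of genes this low. Siglech differed by 3.28. Relative to Ptprc, the CD45 gene of all leukocytes, Lilrb3 (-0.25) and Lilrb4 (-0.20) were instead lower in mutant libraries, while Siglece, Siglec1 and Lilra5 stayed lower (-0.96, -0.77 and -1.51) and Sirpa, Cd300a, Pilra and Siglech stayed higher (0.15, 0.40, 0.69 and 2.71).

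**Figure D2:**
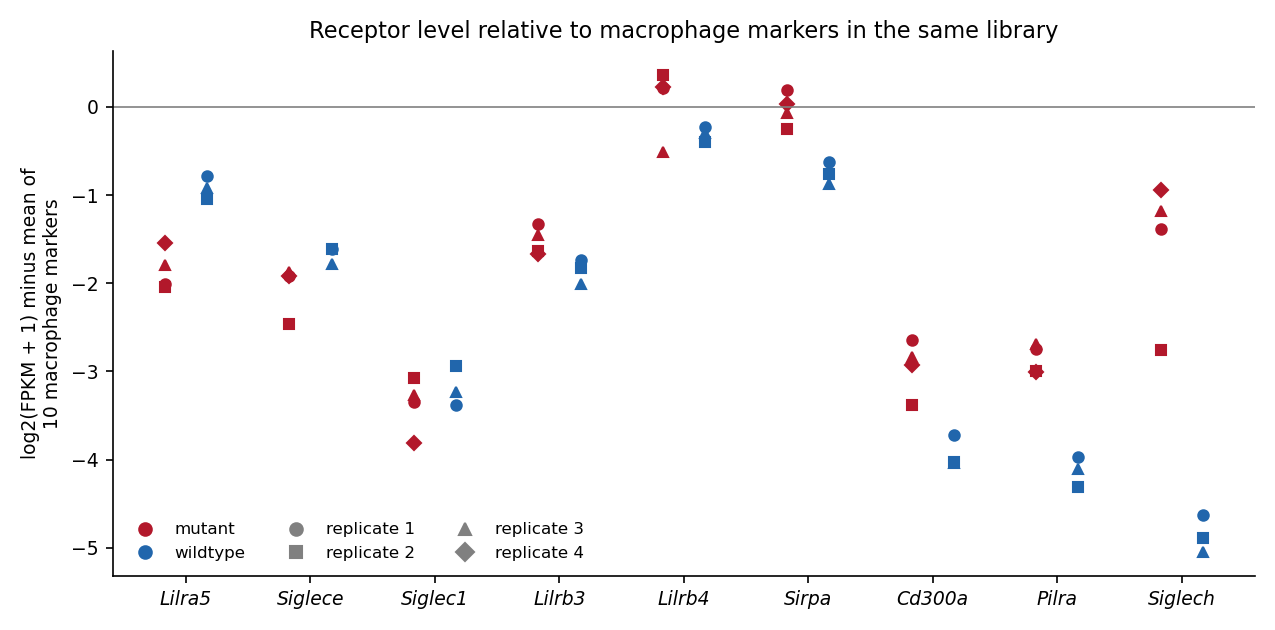
The vertical axis is the log2(FPKM + 1) of each receptor minus the mean of the 10 macrophage markers in the same library, for 4 mutant (red, left) and 3 wildtype libraries (blue, right). Lilra5 and Siglece lie lower in all mutant libraries, Siglec1 and Lilrb4 overlap, and Lilrb3, Sirpa, Cd300a, Pilra and Siglech lie higher.

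The other receptors of the same families were tested in the fit over all genes. The table held 24 of the 30 names, of which 18 reached the filter. Of these 9 fell, 0 rose and 9 were not called, beside 7.34% called lower and 8.76% higher over all genes. The median log2 fold change of the 18 was -0.72. At an unadjusted p under 0.05 the count of higher genes was also 0. Cd33, an inhibitory siglec of myeloid cells, fell to an FPKM of 4.73 ± 2.16 in mutant libraries (SD, n = 4), against 20.7 ± 4.24 in wildtype libraries (SD, n = 3), with a log2 fold change of -1.97 (limma adjusted p = 0.00337). Mag, a siglec of myelin, counted among the 9, reached the filter through the wildtype libraries alone, with an FPKM of 0.330 to 0.506 in mutant libraries and 1.89 to 2.59 in wildtype libraries. The size of its log2 fold change was set by the pseudocount, -1.17 with 1 added and -2.16 with 0.1 added. Pira2, also among the 9, likewise reached the filter through the wildtype libraries, at a mean FPKM of 0.815 in mutant and 1.89 in wildtype libraries. Pira6, an activating partner of Lilrb3, fell by 1.88 (limma adjusted p = 8.7e-04), and Cd300lh fell by 1.92 (limma adjusted p = 0.00128). Lair1, an inhibitory collagen receptor, fell by 1.51 (limma adjusted p = 0.00637). The siglecs of B cells, Cd22 and Siglecg, had log2 fold changes of -0.44 and -0.38 and were not called (limma adjusted p = 0.165 and 0.134). Cd300lg, the family member carried by endothelial cells themselves, was at 186 ± 30.3 in mutant and 154 ± 39.8 in wildtype libraries and was not called (log2 fold change 0.29, standard error 0.19, limma adjusted p = 0.347). The lower count was 5 without wildtype 3 and 7 to 11 without any other library.

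**Figure D3:**
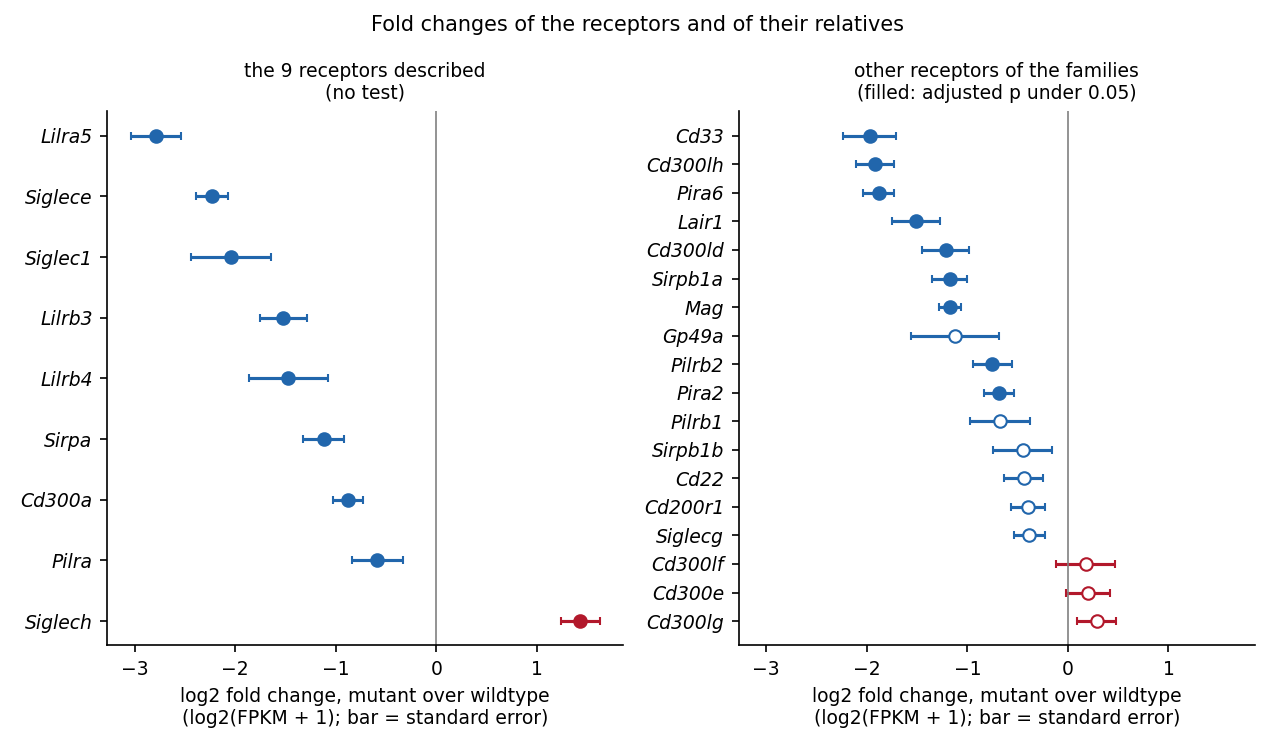
Points are log2 fold changes, mutant over wildtype, on the log2(FPKM + 1) scale, with standard errors as bars, for the 9 receptors (left, without a test) and the 18 tested relatives (right, filled where called). On the left, Siglech alone lies over 0, and on the right the 3 positive points, Cd300lf, Cd300e and Cd300lg, are open.

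Inhibitory receptors and their activating or motif-less relatives did not keep the same ratio in each case. The FPKM of Lilrb3 was 4.57 to 5.67 times that of Pira6 in mutant libraries and 3.01 to 3.16 times in wildtype libraries, with no overlap. The direction of this difference depends on the Pira gene chosen. The mutant mean was 33.8% of the wildtype mean for Lilrb3 and 20.0% for Pira6, but 43.2% for Pira2 and 47.4% for Pira1. Pira1 and Pira2 were low, and ratios to them were not computed. The ratio of Lilrb4 to Gp49a was 1.27 to 1.76 in mutant libraries and 1.599 to 1.95 in wildtype libraries, which overlapped through mutant 3. Sirpa over Sirpb1a was 7.91 to 9.29 in mutant libraries and 6.17 to 9.005 in wildtype libraries. Pilra over the sum of Pilrb1 and Pilrb2 was 0.718 to 1.44 and 0.766 to 0.810 in mutant and wildtype libraries, and Cd300a over Cd300ld was 0.453 to 0.652 and 0.464 to 0.469. The last 3 ratios overlapped between groups and varied more among mutant libraries for the Pilra and Cd300a pairs. Close copies, such as those in the Lilrb3 and Lilrb4 pairs, can share reads, and how the authors' counting split shared reads is not given in the sources used here. How alike the other pairs are in sequence was not examined.

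**Figure D4:**
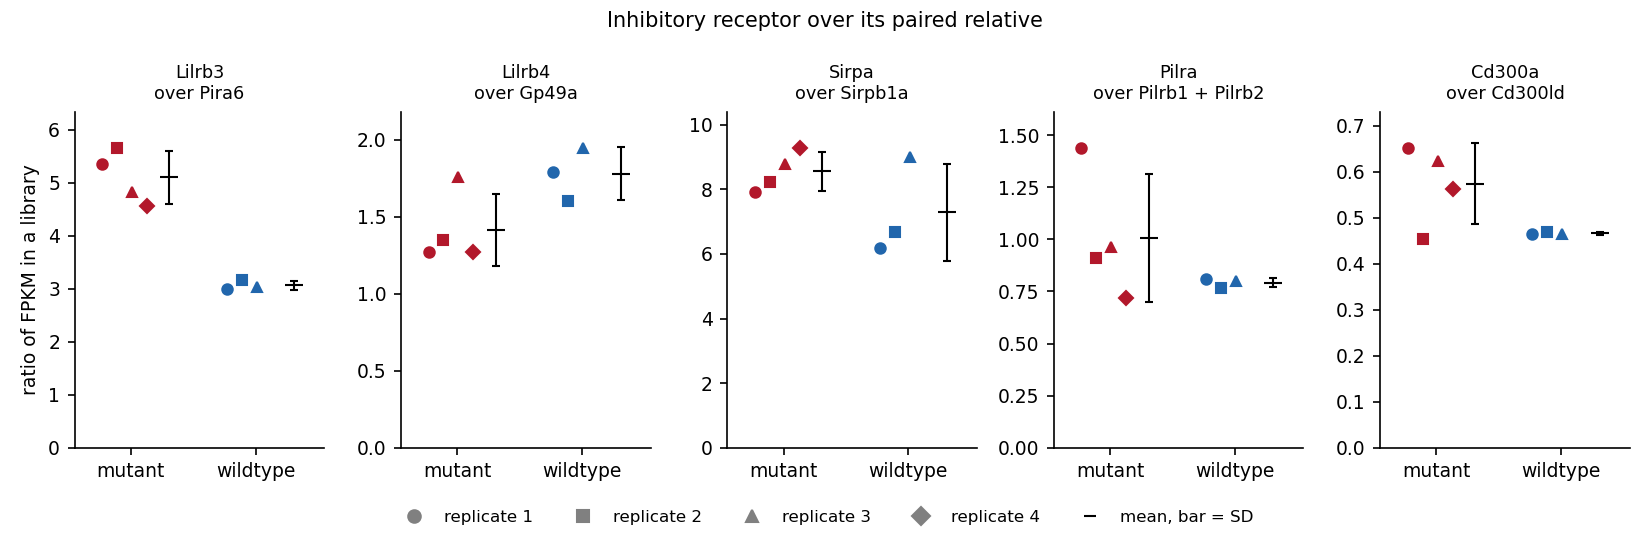
Each panel plots the ratio of the FPKM of a receptor to that of the family relative or relatives named (vertical axis, from 0) in the 4 mutant (red) and 3 wildtype (blue) libraries, with mean and SD in black. The ratio of Lilrb3 to Pira6 is higher in all 4 mutant libraries, at 4.57 to 5.67 against 3.01 to 3.16, and the other 4 ratios overlap. Pira1 and Pira2, which kept a larger share of their wildtype mean than Lilrb3 did, are not plotted.

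The signalling partners of the receptors fell in large part. Of 15 genes tested 11 fell, 0 rose and 4 were not called, beside 7.34% called lower and 8.76% higher over all genes. The median log2 fold change of the 15 was -0.60. At an unadjusted p under 0.05 the higher count was also 0. Ptpn6, the SHP-1 phosphatase recruited by the inhibitory receptors, fell to an FPKM of 18.6 ± 4.27 in mutant libraries (SD, n = 4), against 60.2 ± 8.48 in wildtype libraries (SD, n = 3), with a log2 fold change of -1.66 (limma adjusted p = 0.00205). Ptpn11, the widely expressed SHP-2, was at 19.0 ± 1.21 in mutant and 17.7 ± 1.21 in wildtype libraries and was not called (limma adjusted p = 0.434). The adaptors of the activating receptors fell as well, Tyrobp to 122 ± 34.8 in mutant libraries against 374 ± 79.4 in wildtype libraries (limma adjusted p = 0.0037), and Fcer1g to 86.4 ± 32.2 against 282 ± 54.8 (limma adjusted p = 0.00492). Csk, a kinase that holds Src kinases inactive, fell by 0.75 on the log2 scale (limma adjusted p = 0.00349). Tyrobp, the adaptor of Siglech, was lower in the same libraries in which Siglech was higher. The lower count was 7 without wildtype 2 and 8 to 11 without any other library. Macrophage markers were lower in the same libraries, and their part in the counts of relatives and partners was not tested. Spi1, the gene of PU.1, listed as Sfpi1, fell by 1.73 (limma adjusted p = 0.00595) and Ptprc by 1.28 (limma adjusted p = 0.00157).

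Of 13 ligand genes tested 2 fell, 1 rose and 10 were not called, beside 16.1% called over all genes, and the median was -0.04. Cd47, the ligand of Sirpa, was at an FPKM of 31.9 ± 2.64 in mutant libraries (SD, n = 4) and 35.96 ± 1.54 in wildtype libraries (SD, n = 3) and was not called (log2 fold change -0.17, standard error 0.08, limma adjusted p = 0.208). B2m, the light chain of the MHC class I molecules that Pirb binds, was at 2280.4 ± 461 and 2310.0 ± 102 in mutant and wildtype libraries (limma adjusted p = 0.897). Spn, the sialylated leukocyte protein CD43 that Siglec1 binds, fell to 7.22 ± 1.14 in mutant libraries, against 21.4 ± 1.596 in wildtype libraries (limma adjusted p = 7.6e-04). Apoe, a ligand of human LILRB4 made in quantity by macrophages, fell by 1.35 (limma adjusted p = 0.0314). That call held without mutant 2 or wildtype 1 and was lost without each of the other libraries (largest limma adjusted p = 0.112). Itgb3, a subunit of the integrin that binds gp49B, rose to 4.09 ± 0.25 in mutant libraries, against 2.71 ± 0.14 in wildtype libraries (log2 fold change 0.46, limma adjusted p = 0.00776). That call was lost with the replicate number as a block. Itgav, the other subunit, overlapped between the groups and was not called (log2 fold change 0.33, limma adjusted p = 0.117).

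Of 19 tested genes for enzymes and carriers that make, move or remove sialic acids, 3 fell, 2 rose and 14 were not called, beside 7.34% lower and 8.76% higher over all genes, and the median was 0.05. With so few genes, this count is not read as a result about them. St3gal6, a sialyltransferase of selectin ligands, fell to an FPKM of 26.4 ± 1.46 in mutant libraries (SD, n = 4), against 50.1 ± 8.93 in wildtype libraries (SD, n = 3; limma adjusted p = 0.00325). St8sia4, a polysialyltransferase, fell to 7.34 ± 0.49 in mutant libraries, against 13.1 ± 1.07 in wildtype libraries (limma adjusted p = 0.00166). St6gal1 fell by 0.33 on the log2 scale and St3gal4 rose by 0.33 (limma adjusted p = 0.026 and 0.0314). The St6gal1 call was lost without any 1 of the wildtype libraries or mutant 1 (largest limma adjusted p = 0.11), and that of St3gal4 without any library except mutant 1 (0.0991). Scaling every library to 1 total also ended both calls (limma adjusted p = 0.0916 and 0.181). St3gal5, which starts the ganglioside series, rose by 0.50 (limma adjusted p = 0.0395), a call that held without wildtype 1 and was lost without each of the other libraries (0.146 at most). The higher count of the list was 0 after scaling to 1 total.

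**Figure D5:**
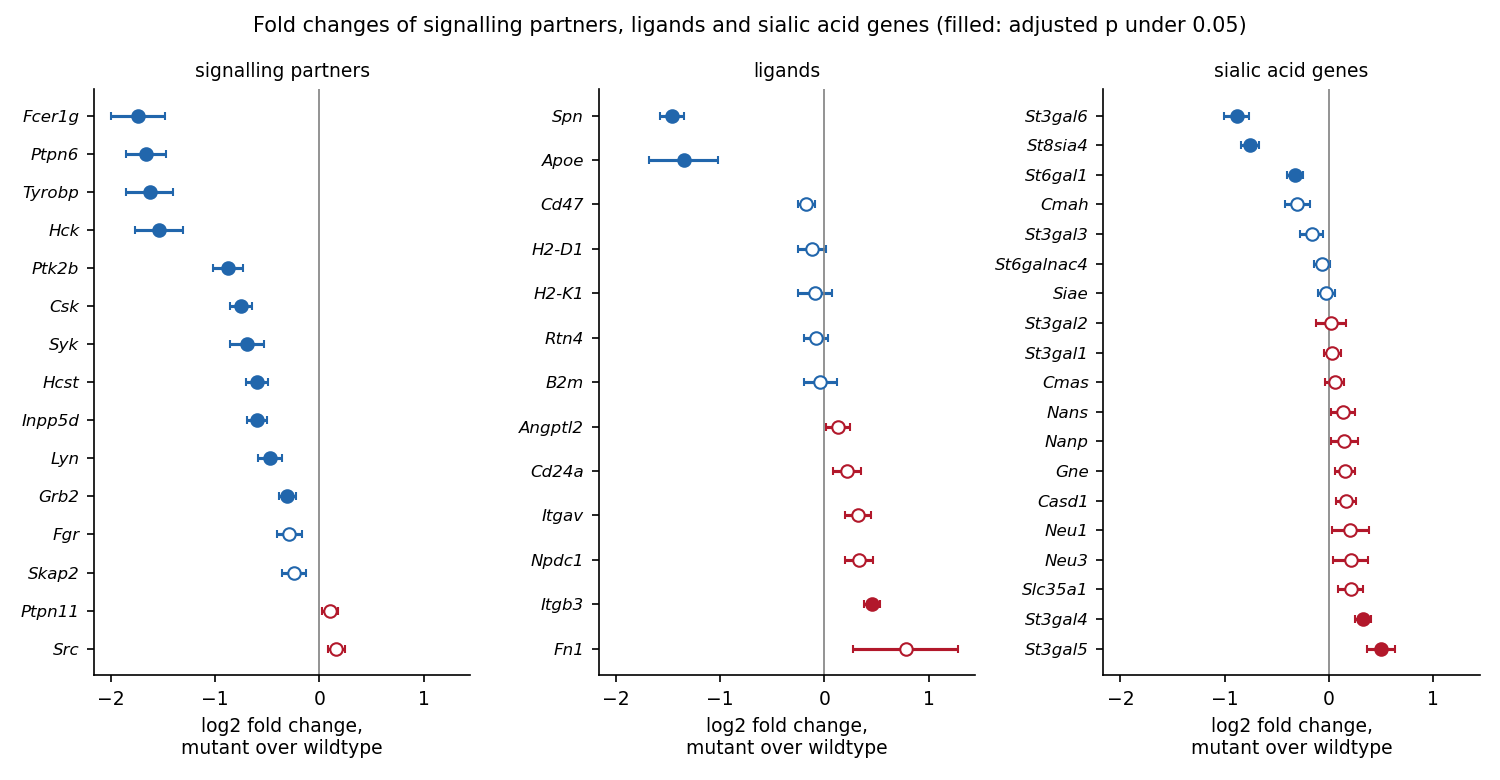
Points are log2 fold changes, mutant over wildtype, on the log2(FPKM + 1) scale, with standard errors as bars, for the 15 signalling partners, 13 ligands and 19 sialic acid genes tested, filled where called. The signalling partners lie mostly below 0, while most ligands and sialic acid genes lie near 0 and are open.

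The genes whose pattern over the 7 libraries was most like the mean log2(FPKM + 1) of the 9 receptors were Slc11a1, Abca9, Cd68, AF251705 and Ctss, with Pearson r of 0.9987, 0.9985, 0.9985, 0.9984 and 0.9974 among 9367 genes compared. The receptor mean was 2.96, 3.71, 3.03 and 3.05 in mutant 1 to 4 and 4.21, 4.38 and 4.71 in wildtype 1 to 3. These points share the 2 groups and the unevenness of mutant 2, and 142 genes reached an r of 0.98. Cd68, a lysosomal protein of macrophages, was at 15.8, 34.9, 15.9 and 16.1 in mutant 1 to 4 and at 51.7, 62.0 and 83.4 in wildtype 1 to 3. Its mutant mean was 31.5% of the wildtype mean, beside 33.8% for Lilrb3, 46.0% for Sirpa and 19.1% for Siglece.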

How the data were processed

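Per the file headers, the deposited values are FPKM, 1 column per library. Tools listed in the submitters' processing notes, without role or order, are RSEM 1.2.28, Bowtie2 2.3.4.1 and Trimmomatic 0.39, with the build mm10. The annotation, use of strand and scaling between libraries were not given in the sources used here. Of 27014 entries, the 429 with no gene name (18.3 to 29.3% of each total) were dropped, and 27 repeated symbols were summed. No column was left without a sample. No pair of libraries held equal values (correlation of log2 values within groups 0.947 to 0.978).

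Too few low values fell on whole reads (33.9 to 37.8% within 0.01 log2, against 2.73 to 2.94% at shifted ratios) to recover counts. Genes averaging an FPKM of 1 or more (13420) were fitted, as log2(FPKM + 1), in limma 3.58.1 (R 4.3.3), two-sided, with an intensity trend and Benjamini-Hochberg adjustment over all of them, and the fit was tested on simulated data. Fold changes understate those of low genes. Errors are SDs of FPKM. The receptors, the lists and the rule for named genes (all 9 receptors, the 4 smallest p of each list, fixed partners and markers, and the 5 most similar genes) were chosen with earlier results of these data known. Gene positions are from GENCODE M21 (mm10), counted from 1, and sequences from RefSeq. Of the 30 other receptors named, 6 had no match. Alternatives tried were a pseudocount of 0.1 or 0.5, dropping the filter or raising it to 5, scaling to 1 total or by median of ratios, the replicate number as a block, Ptprc as the reference gene, and leaving out each library.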

Additional observations from a re-analysis of the deposited data

Results flagged for a closer look

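Among the mutant libraries, mutant 2 stood far above the other 3 for 10 of the 39 named genes (by Dixon's gap ratio), where chance flags about 5% of groups of independent genes. Among the receptors these were Lilrb3, at an FPKM of 16.2 beside 7.63 to 8.97 in the other mutants, and Sirpa, at 44.0 beside 25.1 to 27.2. Among partners and relatives they were Fcer1g at 134 (65.8 to 74.0), Apoe at 1058 (446 to 520.4) and Lair1 at 10.9 (5.95 to 6.63). The other 5 were chosen because they follow the receptor mean, mutant 2 included, so the chance rate does not apply to them: Slc11a1 at 20.0 (8.71 to 9.10), Abca9 at 7.52 (2.96 to 3.15), Cd68 at 34.9 (15.8 to 16.1), AF251705 at 20.1 (9.82 to 10.7) and Ctss at 303 (140 to 155). The genes share 1 library, so these are not independent observations and the count is no test.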

How the results depend on the processing

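Each of the 124 recomputed fold changes of the 9 receptors kept its sign and stayed within the replicate SD of its main value. Part of this was fixed in advance, since a changed filter leaves a gene's own fold change as it was. The replicate block gave the same receptor fold changes as leaving out mutant 4, so it adds no separate check of them. The count of receptors past the threshold in the higher direction was 1 under each alternative. Under the replicate block the counts were 261 higher and 423 lower over all genes, 4 lower receptors, 5 lower among other receptors, 5 lower among signalling partners, 0 higher and 1 lower among ligands, and 0 higher among sialic acid genes. Same-numbered libraries did not deviate together (correlations -0.06, 0.03 and -0.28), but so few libraries cannot exclude a pairing. The labels do not say that a number is shared, so the main fit used no block. Rescaling to the same total gave 576 higher over all genes and 0 higher sialic acid genes, and higher genes were 41.7% of calls, against 54.4% as deposited and 41.6% after median-of-ratios scaling. That last scaling and no filter each left 1 higher sialic acid gene, no filter left 1 lower ligand, and a mean FPKM of at least 5 left 0 higher ligands. The median difference of the receptors relative to macrophage markers, 0.38, was -0.20 with Ptprc as the reference gene; the cause was not tested.

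Leaving out each library gave 324 to 1205 higher and 521 to 1085 lower genes over the whole table, 5 to 8 lower receptors, 5 to 11 lower other receptors, 7 to 11 lower partners, 1 to 2 higher and 1 to 2 lower ligands, and 0 to 1 higher and 2 to 3 lower sialic acid genes. That higher count was 324 without wildtype 2, 470.0 without wildtype 3, 733 without wildtype 1, 615 without mutant 1 and 698 without mutant 2. The receptors relative to macrophage markers ranged from 0.33 to 0.58. Of 417 values of the other named genes 42 lost their call, 1 gained it and 0 reversed. Unknown depth limits the low genes, Pilra, Cd300a, Siglec1 and Siglech.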
